A study of Mus musculus with 9 samples.

Results

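The genes described here encode integrins, syndecans, glypicans, tetraspanins and related receptors with which cells hold on to matrix and to each other. They were chosen by name: symbols of the numbered Itga and Itgb genes and Itgav, of the Sdc, Gpc, Tspan, Cadm and Nectin families, Ddr1 and Ddr2, and Icam1, Cd44, L1cam, Mcam, Alcam, Cd9, Cd63, Cd81, Cd82 and Cd151. The symbol had to occur once, with a mean over the 9 libraries of at least 0.5 FPKM, a fragment number scaled to transcript length and to the library's mapped fragments. Of 15446 uniquely named rows, 45 carried such a name and 36 met the bound: 5 integrin alpha chains, 6 integrin beta chains, 4 syndecans, 2 glypicans, 16 tetraspanins, Cadm4, Cd44 and Icam1. The lowest gene inside the bound was Itgb4, at a mean of 0.588 FPKM, and the highest outside was Itga8, at 0.241 FPKM. Mcam, Cd151 and Itgav were not analysed here.

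The cells were ROC6, a mouse oral squamous cancer line, in 3 groups of 3 libraries: a Csmd3 knockout made with guide 1, a Csmd3 knockout made with guide 2, and a control labelled WT. Csmd3 was not analysed here, so the labels were not checked against the targeted gene. The series speaks of the knockouts as clones, so what a guide and a clone contribute cannot be told apart. Nothing says that replicates were separate cultures, and p-values therefore measure only how these libraries vary, which may be technical.

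Integrins are pairs of an alpha and a beta chain that bind matrix proteins outside the cell and the actin or keratin cytoskeleton inside it. Syndecans and glypicans carry heparan sulfate chains that bind growth factors and matrix, the former as transmembrane proteins and the latter through a lipid anchor. Tetraspanins are small membrane proteins that gather integrins, proteases and signalling receptors into patches of membrane. In stratified oral epithelium, basal cells rest on laminin through integrins, and Cd44 and Sdc1 are abundant on their surface.

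Both knockout means were above the control mean in 7051 of the uniquely named rows and below it in 8390, with 5 others, so a direction shared by the knockouts is a property of the rows and not a result about these genes. The value of 1 fragment, estimated from genes with very low FPKM, put the libraries' depths between 0.807 and 1.26 times that of control replicate 1. The ratio chosen for each library was shared by 19 to 41 genes, of 1669 to 2072 compared, so these depths are rough. Absolute depth is unknown. Of 14 markers of oral squamous epithelium 5 had a row. Since nearly all rows share a direction, a gene without a row may still be expressed, and its level is unknown here. Sfn, 1 of the 5, had means of 1.03 FPKM in the control, 2.99 for guide 1 and 1.61 for guide 2. Perp, a desmosomal membrane protein of such epithelia, was present in the control at 79.1 ± 3.84 FPKM (SD, n = 3, as for all such errors below), but the keratins Krt15, Krt16 and Krt17 had means under 1 FPKM in every group, and Krt15 and Krt16 were listed at 0 in all controls. Among markers of other cells, 4 of 12 fibroblast genes had a row, with a summed level of 3.7 to 4.0 FPKM in the control, 8.9 to 12.3 for guide 1 and 14.3 to 15.2 for guide 2. The 3 of 15 leukocyte genes with a row summed to 0.473 to 0.884, 1.20 to 1.54 and 1.81 to 2.67 FPKM, and the 3 of 10 endothelial genes to 0 to 0.0434, 0.665 to 0.865 and 0.0454 to 0.147 FPKM, in the same order. The endothelial sum for guide 1 was mostly Kdr, at a mean of 0.667 FPKM. The 4 of 10 neural and Schwann genes with a row summed to 6.25 to 7.44 FPKM in the control, 5.71 to 6.24 for guide 1 and 7.25 to 8.11 for guide 2. Most of that sum was Ncam1, at means of 6.58, 4.76 and 6.15 FPKM in the same order. The part of these cells in the results was not tested, and in bulk RNA fewer cells of a type and less RNA per cell cannot be told apart.

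Levels were compared as log2(FPKM + 1) in limma linear models over all genes with a mean of at least 1 FPKM, and a call needed an adjusted p (Benjamini-Hochberg) under 0.05. On this scale the change of a scarce gene is understated. Of the 36 adhesion genes 32 could be tested. In 9 of the 32 some group lay under 1 FPKM in all its libraries, so these passed the bound through another group, and the counts that follow describe the genes and support nothing. For guide 1, 28 of the 32 were called, 19 higher than the control and 9 lower, where 68.1% of all 6965 tested genes were called, 30.2% higher and 37.9% lower. For guide 2, 27 were called, 16 higher and 11 lower, where 65.4% of all tested genes were, 31.9% higher and 33.5% lower. For the mean of both guides, 30 were called, 19 higher and 11 lower, against 81.1% of all tested genes, 37.8% higher and 43.3% lower. The median log2 fold change of the 32 was 0.41 for guide 1 and 0.24 for guide 2, and that of all tested genes was -0.04 and -0.03.

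All 6 knockout libraries lay beyond all 3 controls in 26 of the 32 genes, 16 higher and 10 lower, and in 53.7% of all tested genes, 24.7% higher and 29.0% lower. The guide 1 libraries lay beyond the controls in 29 genes, where 71.9% of all tested genes did so, and the guide 2 libraries in 29, where 68.6% did. Changes of at least 1 log2 unit were called in 11 genes for guide 1, in 8 for guide 2 and in 10 for the mean of both, where 10.4%, 8.16% and 8.51% of all tested genes had such a call.

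**Figure D1:**
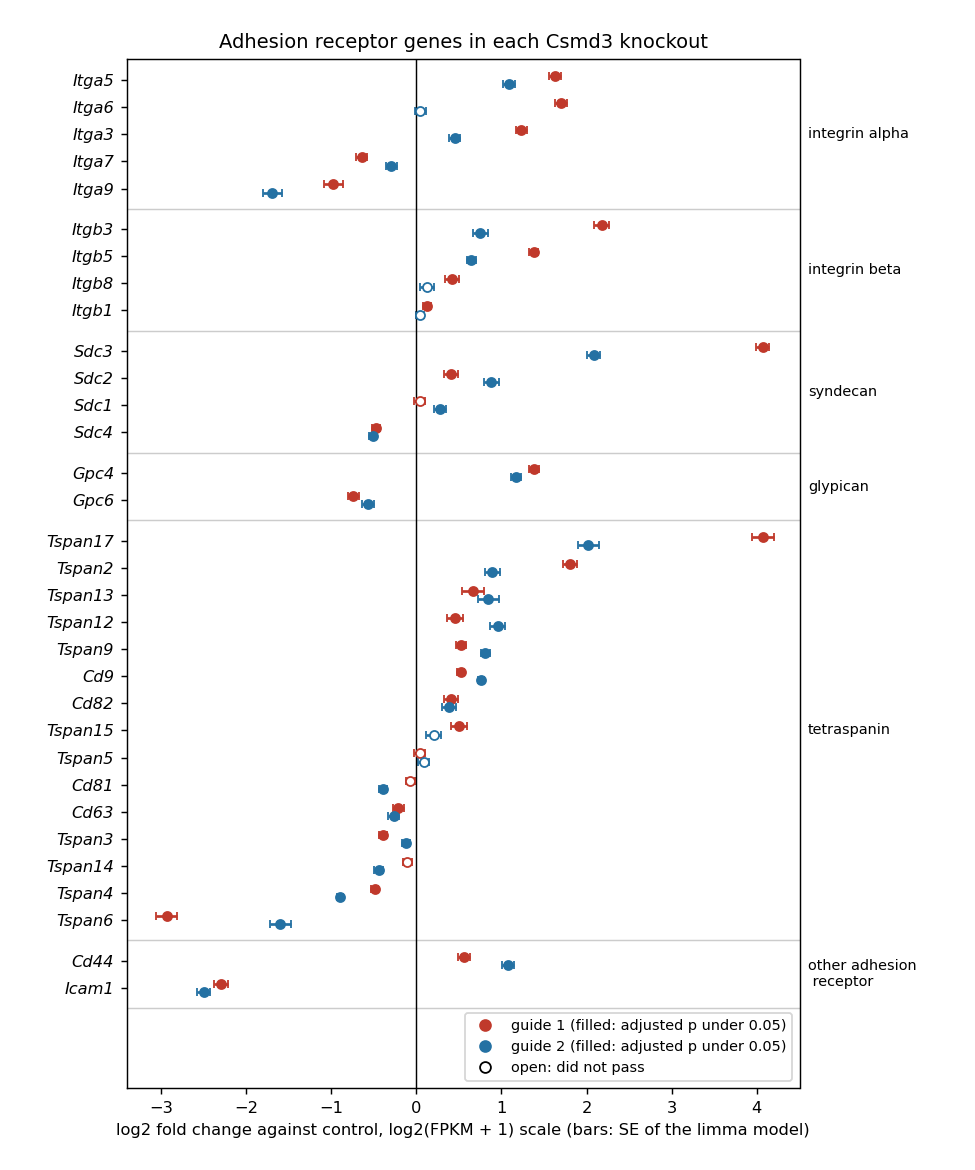
Log2 fold change against control of the 32 tested adhesion genes, by family, with guide 1 in red and guide 2 in blue; bars are the standard error of the limma model, filled points passed an adjusted p of 0.05 and open points did not. Sdc3 and Tspan17 lie farthest to the right, at 4.07 and 4.07 for guide 1, and Tspan6 and Icam1 farthest to the left.

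The 3 genes below are shown by the sequence around their transcription start because they moved most for the mean of both guides: Sdc3 and Tspan17 upwards, and Icam1 downwards. The windows run from 250 bases before to 50 bases after the start and come from RefSeq on GRCm38.p6, in which 30 of the 36 genes had an entry. Capitals mark each GGGCGG, the Sp family motif, on either strand. The Sdc3 window lies on the plus strand at chr4:130792287-130792586, the Tspan17 window on the plus strand at chr13:54789155-54789454, and the Icam1 window on the plus strand at chr9:21015690-21015989.
Sdc3: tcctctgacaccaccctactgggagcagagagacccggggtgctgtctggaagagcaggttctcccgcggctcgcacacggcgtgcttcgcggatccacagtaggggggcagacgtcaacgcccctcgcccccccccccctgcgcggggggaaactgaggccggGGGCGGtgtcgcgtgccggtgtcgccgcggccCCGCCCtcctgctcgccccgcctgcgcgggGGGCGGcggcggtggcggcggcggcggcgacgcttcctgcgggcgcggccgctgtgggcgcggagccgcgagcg
Tspan17: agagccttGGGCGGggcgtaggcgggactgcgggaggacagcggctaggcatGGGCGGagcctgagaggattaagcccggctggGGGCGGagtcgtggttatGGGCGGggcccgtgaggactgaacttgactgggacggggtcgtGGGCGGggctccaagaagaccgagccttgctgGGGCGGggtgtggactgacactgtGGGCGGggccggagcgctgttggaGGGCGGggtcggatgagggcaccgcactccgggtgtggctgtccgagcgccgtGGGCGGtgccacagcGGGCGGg
Icam1: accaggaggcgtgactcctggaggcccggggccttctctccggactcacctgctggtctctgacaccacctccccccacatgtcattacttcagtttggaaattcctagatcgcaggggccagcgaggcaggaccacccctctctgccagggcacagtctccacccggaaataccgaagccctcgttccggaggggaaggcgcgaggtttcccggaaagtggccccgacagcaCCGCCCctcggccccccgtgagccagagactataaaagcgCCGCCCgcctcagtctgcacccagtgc
Tspan17 held 10 such motifs, Sdc3 held 3 and Icam1 held 2, in windows of 72.0%, 77.7% and 64.7% GC, where the median of all windows was 52.7%. The motif was present near 38.2% of the 27025 genes in the table. That share, like those of the motifs below, includes genes that were not tested for expression here. A share among the tested genes alone is not given. It was present in 12 of the 16 adhesion genes with a window that were called higher for the mean of both guides, and in 5 of the 9 called lower. The AP-1 motif TGANTCA was found in 2 of the 16 and 2 of the 9, and near 8.97% of all genes. The TEAD motif GGAATG was found in 4 of the 16 and 0 of the 9, and near 16.6% of all genes. The NF-kB motif GGGRNWYYCC was found in 1 of the 16 and 1 of the 9, and near 5.14% of all genes. In these letters R is A or G, W is A or T, Y is C or T and N is any base. None of these 3 further motifs, searched on both strands, lay in the windows shown as an exact match of letters. The E-box CANNTG and the Ets motif CAGGAA were searched as well. The E-box lay at 2 places in the Icam1 window, in 10 of the 16 and 7 of the 9, and near 75.0% of all genes. The Ets motif lay at 1 place in the Sdc3 window, in 7 of the 16 and 2 of the 9, and near 33.4% of all genes. The Icam1 window holds tggaaattcc, which departs from the NF-kB letters in its first base only. The search therefore does not show that an NF-kB site is absent there. A match of letters is a description and not a binding site.

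Among the 5 integrin alpha chains, 3 were called higher and 2 lower for guide 1, where 30.2% and 37.9% of all tested genes were, and 2 higher and 2 lower for guide 2, where 31.9% and 33.5% were. Itga5 encodes the chain that pairs with Itgb1 to bind fibronectin. Its FPKM was 14.6, 14.2 and 14.4 in the controls, 44.0, 44.8 and 51.1 for guide 1, and 28.7, 33.6 and 33.3 for guide 2. The 3 groups did not overlap, with guide 1 highest and the control lowest. On the log2 scale it was 1.62 higher for guide 1 and 1.09 for guide 2 (SE 0.0719; limma adjusted p = 1.77e-08 and 4.43e-07). Itga3, a laminin receptor chain of epithelial cells and the most abundant alpha chain here, stood at 32.4 ± 0.876 FPKM in the control, 77.6 ± 5.02 for guide 1 and 44.7 ± 3.30 for guide 2, and rose by 1.23 and 0.45 log2 units.

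Itga6, the laminin receptor chain of hemidesmosomes, stood at 2.21, 2.21 and 2.27 FPKM in the controls, 9.79, 9.08 and 9.61 for guide 1, and 2.10, 2.31 and 2.62 for guide 2. Guide 1 lay above both other groups, which overlapped. The log2 fold change was 1.70 for guide 1 (SE 0.0667, limma adjusted p = 7.31e-09) and 0.05 for guide 2 (limma adjusted p = 0.554). Its partner in hemidesmosomes, Itgb4, was under the bound for testing and was lowest where Itga6 was highest, at 0.843 ± 0.0426 FPKM in the control, 0.308 ± 0.0480 for guide 1 and 0.612 ± 0.0892 for guide 2. With all genes of at least 0.5 FPKM in the model, its log2 fold changes were -0.49 and -0.19 (limma adjusted p = 0.00025 and 0.0498). Itgb4 passed that bound through the control and guide 2, so these values describe the gene and support nothing.

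Itga7 and Itga9 fell in both knockouts. Itga7, a laminin receptor chain best known from muscle, stood at 14.6 ± 0.414 FPKM in the control, 8.99 ± 0.664 for guide 1 and 11.7 ± 0.848 for guide 2, log2 changes of -0.64 and -0.30. Itga9, whose product binds tenascin C among other ligands, stood at 3.10, 2.64 and 2.00 FPKM in the controls, 0.875, 0.816 and 0.717 for guide 1, and 0.0645, 0.112 and 0.114 for guide 2. The groups did not overlap and guide 2 was lowest. Its log2 changes of -0.98 and -1.69 (SE 0.112; limma adjusted p = 2.17e-05 and 4.38e-07) were -1.55 and -3.76 with a pseudocount of 0.1.

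Of the integrin beta chains, Itgb1, the common partner of many alpha chains, was the most abundant. It was at 217, 204 and 201 FPKM in the controls, 220.5, 225 and 234 for guide 1, and 201, 217 and 223 for guide 2. The guide 1 libraries lay just above the controls, and guide 2 overlapped both other groups. The log2 fold change was 0.13 for guide 1 (SE 0.0510, limma adjusted p = 0.0489) and 0.04 for guide 2 (limma adjusted p = 0.484). The guide 1 call was lost in 10 of the alternatives tried, with limma adjusted p up to 0.157, among them those without guide 1 replicate 1, 2 or 3, guide 2 replicate 2, or control replicate 2 or 3.

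Itgb5, which pairs with the alpha-v chain to bind vitronectin, stood at 64.0, 62.7 and 57.0 FPKM in the controls, 158, 158 and 167 for guide 1, and 93.8, 98.4 and 96.8 for guide 2. Here the 3 groups were fully apart, at log2 changes of 1.38 and 0.65 (SE 0.0510; limma adjusted p = 4.66e-09 and 1.63e-06). Itgb3, the other vitronectin receptor chain and the beta chain of platelets and osteoclasts, was at 0.110, 0.136 and 0.0475 FPKM in the controls. It reached 3.67, 4.41 and 3.83 FPKM for guide 1 and 0.938, 0.860 and 0.752 for guide 2, so that every guide 1 library lay above every guide 2 library and these above every control. The mean was 40.5 times the control mean for guide 1 and 8.67 times for guide 2, from a control close to 0. The change in log2 units was 2.18 and 0.75 (SE 0.0849; limma adjusted p = 7.05e-09 and 2.37e-05), or 4.38 and 2.28 with a pseudocount of 0.1.

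The remaining beta chains were scarce. Itgb8, whose integrin activates latent TGF-beta, stood at 0.881 ± 0.0777 FPKM in the control, 1.52 ± 0.191 for guide 1 and 1.05 ± 0.0384 for guide 2. It passed for guide 1 (0.42, limma adjusted p = 0.000934) but not for guide 2 (0.13, limma adjusted p = 0.195), and the guide 1 change was 0.72 with a pseudocount of 0.1. Itgb7, a chain of leukocyte integrins, was not tested at the bound of 1 FPKM. It was at 0.0727, 0.0791 and 0.207 FPKM in the controls, 0.794, 0.798 and 0.889 for guide 1 and 0.854, 0.947 and 1.12 for guide 2. All knockout libraries lay above the controls, and with genes of at least 0.5 FPKM in the model the log2 changes were 0.71 and 0.82 (limma adjusted p = 3.93e-05 and 1.68e-05). Itgb7 passed that bound only through the knockouts, so these values describe the gene and support nothing. The summed leukocyte markers, mostly Cd68, were also higher in both knockouts, as given above. Itgal, another leukocyte integrin chain, was listed at 0 in all 6 knockout libraries. The part of such cells in Itgb7 was not tested.

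Summed over these chains, integrin alpha FPKM was 66.1 ± 1.95 in the control, 144 ± 9.54 for guide 1 and 90.7 ± 7.01 for guide 2. Integrin beta FPKM was 271 ± 11.6, 394 ± 12.1 and 314 ± 13.6, in the same order. Itgb1 made up 76.7% ± 0.710 of the beta sum in the control, 57.5% ± 0.178 for guide 1 and 68.2% ± 0.801 for guide 2, and Itgb5 made up 22.6% ± 0.694, 40.8% ± 0.281 and 30.7% ± 0.776. Within the alpha sum, the share of Itga7 was 22.0% ± 0.138, 6.26% ± 0.0766 and 12.9% ± 0.263, and that of Itga5 was 21.8% ± 0.492, 32.5% ± 0.715 and 35.1% ± 0.522. Itga3 was the largest alpha share in every group, at 48.9% ± 0.122, 54.1% ± 0.337 and 49.3% ± 0.606. These shares cover the chains measured here only and were not tested.

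**Figure D2:**
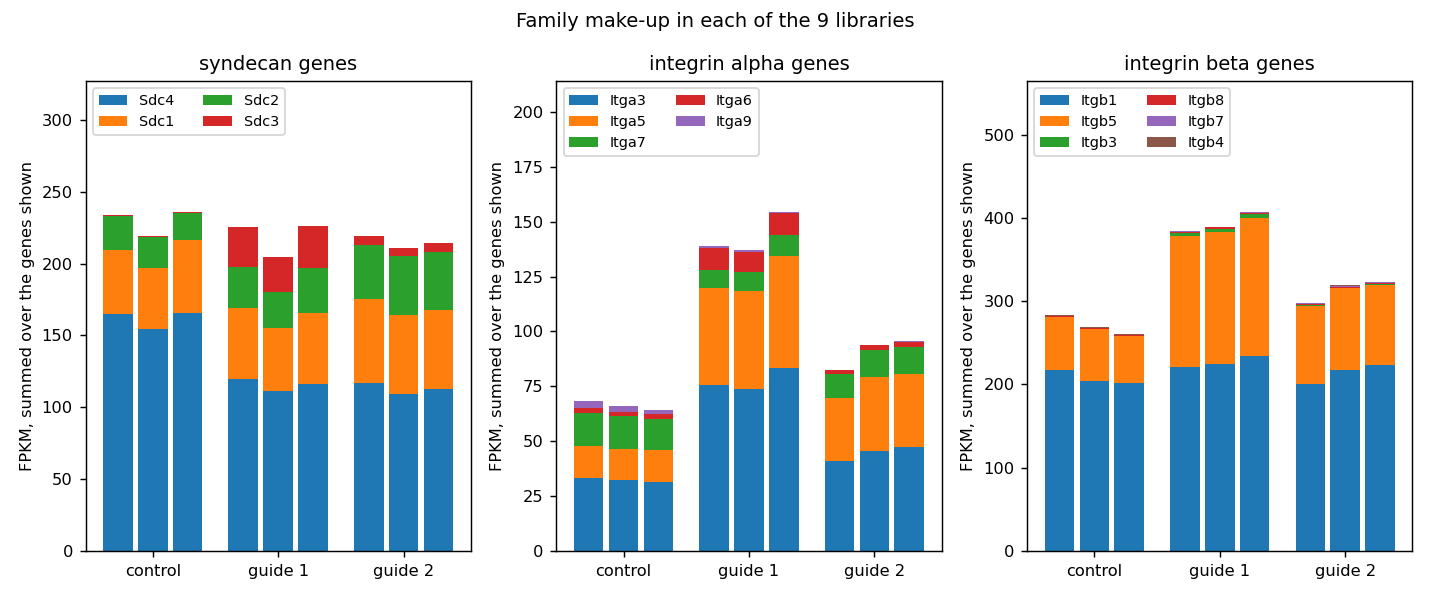
Stacked FPKM of the syndecan, integrin alpha and integrin beta genes in each of the 9 libraries, 1 bar per library, ordered by group. The mean syndecan sums lie close together (229.5, 218.6 and 214.8 FPKM in control, guide 1 and guide 2) while the Sdc4 segment is smaller and the Sdc3 and Sdc2 segments are larger in the knockouts, and the integrin sums are highest for guide 1.

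The syndecans split. Sdc3, best known from the nervous system, was at 0.759, 0.553 and 0.683 FPKM in the controls, 27.8, 24.3 and 28.7 for guide 1, and 5.92, 5.82 and 6.38 for guide 2. The 3 groups were far apart relative to their spread. It rose by 4.07 and 2.08 log2 units (SE 0.0748; limma adjusted p = 5.09e-11 and 5.59e-09). Sdc4, the syndecan of focal adhesions and the most abundant of the family, was at 165, 154 and 166 FPKM in the controls, 119.6, 112 and 116 for guide 1 and 117, 109 and 112 for guide 2. The knockouts overlapped in Sdc4 and lay below every control, at log2 changes of -0.48 and -0.51 (SE 0.0465; limma adjusted p = 6.6e-06 and 4.58e-06).

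Sdc2, the syndecan of mesenchymal cells, stood at 23.0, 21.4 and 19.1 FPKM in the controls, 28.5, 25.2 and 31.8 for guide 1, and 38.1, 41.0 and 40.4 for guide 2. The groups did not overlap, and here guide 2 was highest. It rose by 0.41 and 0.88 log2 units (SE 0.0866; limma adjusted p = 0.00174 and 8.4e-06). Sdc1, the syndecan of stratified epithelium, stood at 46.1 ± 3.98 FPKM in the control, 47.4 ± 3.21 for guide 1 (0.04, limma adjusted p = 0.627) and 56.1 ± 1.94 for guide 2 (0.28, limma adjusted p = 0.00452).

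Together the 4 syndecans summed to 229.5 ± 9.10, 219 ± 12.1 and 215 ± 4.07 FPKM in control, guide 1 and guide 2. The share of Sdc4 in that sum was 70.4% ± 0.158 in the control, 53.0% ± 1.48 for guide 1 and 52.5% ± 0.718 for guide 2. Sdc3 made up 0.289% ± 0.0362, 12.3% ± 0.422 and 2.81% ± 0.145 of it, Sdc2 made up 9.24% ± 0.995, 13.01% ± 0.930 and 18.6% ± 1.05, and Sdc1 made up 20.1% ± 1.16, 21.6% ± 0.302 and 26.1% ± 0.459.

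Of the glypicans, Gpc4 was at 13.6, 14.8 and 14.3 FPKM in the controls, 36.9, 40.7 and 38.9 for guide 1 and 31.4, 34.7 and 33.9 for guide 2. No knockout library came near a control. It rose by 1.39 and 1.17 log2 units (SE 0.0566; limma adjusted p = 9.73e-09 and 4.41e-08). Gpc6 moved the other way, at 6.04 ± 0.277 FPKM in the control, 3.23 ± 0.319 for guide 1 and 3.76 ± 0.144 for guide 2, log2 changes of -0.74 and -0.57. Gpc4 was the larger share of the 2 in every group, at 70.2% ± 1.75 in the control, 92.3% ± 0.554 for guide 1 and 89.8% ± 0.814 for guide 2.

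Of 30 genes listed for the synthesis and editing of heparan sulfate, the sugar carried by syndecans and glypicans, 21 had a row and 18 were tested. For the mean of both guides 6 were called higher and 9 lower, where 37.8% and 43.3% of all tested genes were. The median log2 fold change was -0.19, and that of all tested genes was -0.08. The largest changes were in Hs3st1, a sulfotransferase that acts late in the chain's synthesis, and Sulf1, a secreted enzyme that removes sulfate from finished chains. Hs3st1 stood at 5.77 ± 0.768 FPKM in the control, 0.320 ± 0.0465 for guide 1 and 0.0553 ± 0.0293 for guide 2, and Sulf1 at 23.0 ± 2.96, 4.75 ± 0.431 and 2.15 ± 0.126 FPKM.

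Of 9 genes for the cleavage and anchoring of syndecans 2 were tested, and both were called lower for the mean of both guides, where 43.3% of all tested genes were. Adam10, a membrane protease, was at 38.8 ± 2.24 FPKM in the control, 24.3 ± 1.34 for guide 1 and 26.2 ± 0.855 for guide 2. Sdcbp, the scaffold syntenin, was at 37.5 ± 1.19, 30.3 ± 1.86 and 36.8 ± 0.600 FPKM, and did not pass for guide 2 alone (-0.02, limma adjusted p = 0.705).

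**Figure D3:**
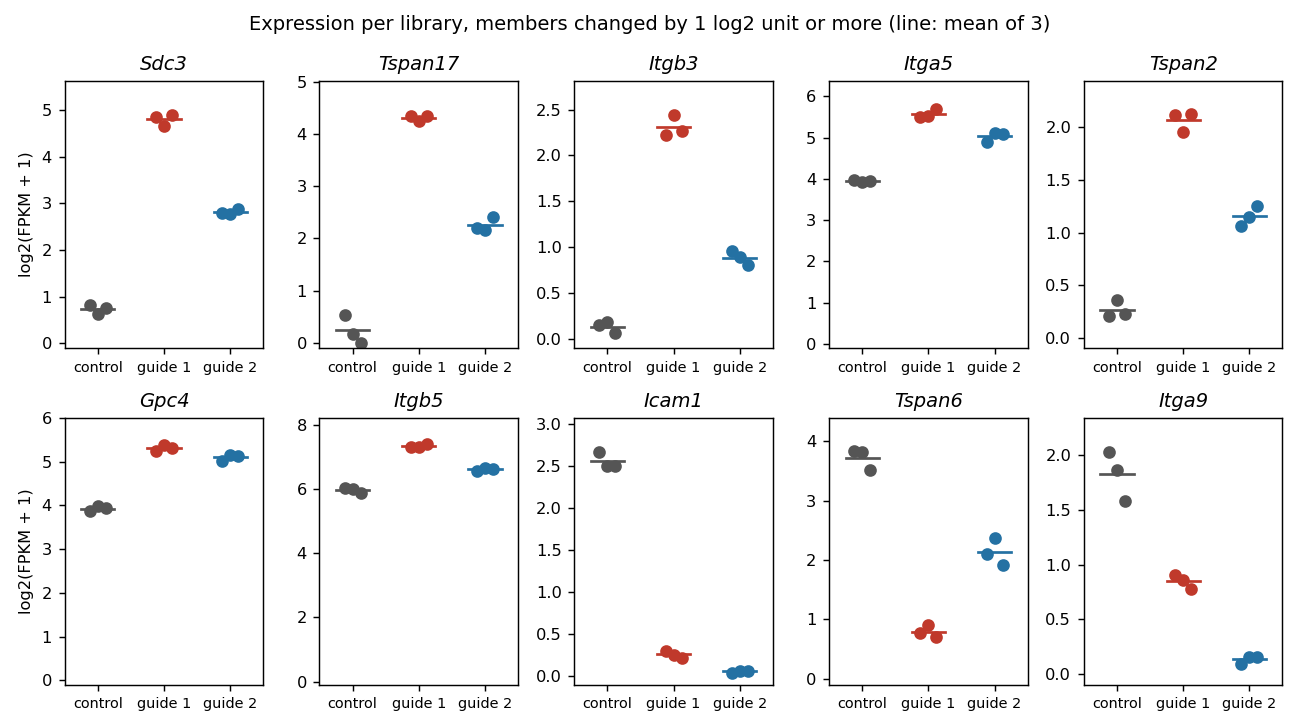
Level of each gene in every library as log2(FPKM + 1), for the 10 adhesion genes that passed for both guides, changed by 1 log2 unit or more on average and had all 6 knockout libraries beyond all 3 controls; lines are group means. In Sdc3, Tspan17, Itgb3, Itga5, Tspan2, Gpc4 and Itgb5 the guide 1 libraries lie highest and the controls lowest, and in Icam1, Tspan6 and Itga9 the controls lie highest.

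Of the 15 tested tetraspanins, 8 were called higher and 4 lower for guide 1, where 30.2% and 37.9% of all tested genes were, and 7 higher and 6 lower for guide 2, where 31.9% and 33.5% were. All tested genes likewise went in both directions. Tspan17 belongs to the tetraspanins that escort the protease Adam10 to the cell surface. It was at 0.457, 0.129 and 0 FPKM in the controls, 19.3, 18.0 and 19.2 for guide 1, and 3.61, 3.48 and 4.34 for guide 2. The groups were fully apart, and 1 control was listed at 0. It rose by 4.07 and 2.02 log2 units (SE 0.124; limma adjusted p = 1.26e-09 and 2.52e-07), or 6.34 and 4.06 with a pseudocount of 0.1.

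Of the same subgroup, Tspan5, Tspan14 and Tspan15 were also measured. Tspan15 stood at 1.08 ± 0.175 FPKM in the control, 1.95 ± 0.123 for guide 1 and 1.40 ± 0.198 for guide 2. It passed for guide 1 (0.50, or 0.80 with a pseudocount of 0.1) and not for guide 2 (0.21, limma adjusted p = 0.0661). The guide 2 result became a call with the replicate block (limma adjusted p = 0.036), with a constant prior variance (limma adjusted p = 0.0409) and without control replicate 1 (0.27, limma adjusted p = 0.0275). Tspan14 was at 31.4 ± 1.55, 29.1 ± 0.543 and 22.8 ± 0.969 FPKM, and passed for guide 2 (-0.44) and not for guide 1 (-0.10, limma adjusted p = 0.0877), though the latter was a call without control replicate 3 (-0.14, limma adjusted p = 0.0268). Tspan5 was at 7.71 ± 0.225, 7.97 ± 0.737 and 8.26 ± 0.0544 FPKM and passed for neither (limma adjusted p = 0.598 and 0.24).

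Tspan6 had the largest fall among the tetraspanins. It stood at 13.3, 13.05 and 10.5 FPKM in the controls, 0.698, 0.886 and 0.623 for guide 1, and 3.31, 4.15 and 2.77 for guide 2. The groups did not overlap, and guide 1 was lowest. The log2 changes were -2.93 and -1.60 (SE 0.122; limma adjusted p = 1.11e-08 and 1.3e-06). Tspan2, a tetraspanin known from myelinating cells, was at 0.150, 0.285 and 0.169 FPKM in the controls, 3.35, 2.88 and 3.36 for guide 1 and 1.09, 1.22 and 1.38 for guide 2. Its groups were apart in the opposite order, with log2 changes of 1.80 and 0.89 (SE 0.0874; limma adjusted p = 3.31e-08 and 8.18e-06), or 3.48 and 2.16 with a pseudocount of 0.1.

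The abundant tetraspanins changed by less. Cd63, a marker of late endosomes and exosomes, stood at 225, 227 and 213 FPKM in the controls, 204, 192 and 178 for guide 1, and 200.5, 178 and 175 for guide 2. Every knockout library lay below every control, at log2 changes of -0.21 (limma adjusted p = 0.0139) and -0.27 (limma adjusted p = 0.00428). Without guide 1 replicate 3 the guide 1 change was -0.16 (limma adjusted p = 0.0608), and after rescaling each library by its trimmed mean it was -0.17 (limma adjusted p = 0.0612).

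Cd9, a partner of integrins best known from the fusion of egg and sperm, was at 112, 117 and 112 FPKM in the controls, 163, 167 and 162 for guide 1 and 195, 192 and 196 for guide 2. Its groups were fully apart with guide 2 highest, at log2 changes of 0.52 and 0.76 (SE 0.0373; limma adjusted p = 6.35e-07 and 4.82e-08). Tspan4, a component of the migrasomes that moving cells leave behind, was at 148, 144 and 146 FPKM in the controls, 104, 102 and 105 for guide 1 and 78.7, 79.4 and 76.2 for guide 2. It fell in both knockouts and guide 2 was lowest, at log2 changes of -0.49 and -0.90 (SE 0.0373; limma adjusted p = 9.88e-07 and 1.53e-08). Tspan4 shares up to 292 exon bases with the opposite-strand gene Chid1 in GENCODE on GRCm38; the labels describe a stranded kit, but whether the counting used strand is not stated in the sources here.

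Mean FPKM among the tetraspanins was highest for Cd63 in the control and for guide 1, followed by Tspan4 and then Cd9 in the control, and by Cd9 and then Tspan4 for guide 1. For guide 2, Cd9 at 194 ± 2.16 FPKM and Cd63 at 184 ± 14.0 FPKM did not differ beyond their spread. Cd9 made up 17.2% ± 0.493 of the tetraspanin FPKM in the control, 25.5% ± 0.635 for guide 1 and 31.1% ± 0.790 for guide 2, while the sum over the 16 genes was 664 ± 20.0, 645 ± 14.2 and 624 ± 16.4 FPKM.

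Cd81, part of the B cell co-receptor complex, stood at 61.0 ± 3.52 FPKM in the control, 58.1 ± 1.77 for guide 1 (-0.07, limma adjusted p = 0.244) and 46.3 ± 0.660 for guide 2 (-0.39, limma adjusted p = 5.71e-05). Without control replicate 3 the guide 1 change of Cd81 was -0.12 and passed (limma adjusted p = 0.0332). Cd82, known as a suppressor of metastasis, was called higher in both knockouts, at 9.03 ± 1.06 FPKM in the control, 12.3 ± 1.05 for guide 1 and 12.01 ± 0.438 for guide 2. Tspan12, a co-receptor of Norrin and Frizzled, stood at 2.83, 2.30 and 2.58 FPKM in the controls, 3.90, 3.44 and 4.36 for guide 1, and 5.92, 5.37 and 6.48 for guide 2. Its groups did not overlap and guide 2 was highest (log2 changes 0.46 and 0.95, SE 0.0900). Tspan9 rose by 0.53 and 0.81 log2 units, and Tspan13 by 0.66 and 0.85, or 1.27 and 1.53 with a pseudocount of 0.1. Tspan3 was at -0.39 for guide 1 and -0.12 for guide 2 (limma adjusted p = 0.0409). The guide 2 call was lost in 11 of the alternatives tried, with limma adjusted p up to 0.16, among them those without control replicate 1 or 2, guide 2 replicate 2 or 3, or any guide 1 library.

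Tspan11 was under the bound for testing and stood highest for guide 2, at 2.06, 1.69 and 2.00 FPKM, with 0.178, 0.0656 and 0.114 for guide 1 and 0, 0.0604 and 0 in the controls. With all genes of at least 0.5 FPKM in the model, its log2 difference between guide 2 and guide 1 was 1.38 (limma adjusted p = 6.21e-07). Tspan11 passed that bound only through guide 2, so this value describes the gene and supports nothing. Of 16 listed partners of tetraspanins 5 were tested, with 1 called higher and 3 lower for the mean of both guides, where 37.8% and 43.3% of all tested genes were. Ptgfrn, an immunoglobulin family partner of Cd9 and Cd81, stood at 6.62 ± 0.178 FPKM in the control, 9.37 ± 0.561 for guide 1 and 12.1 ± 0.534 for guide 2. Adam10, given above, had a change of -0.60 for the mean of both guides. Igsf8, another immunoglobulin family partner of Cd9 and Cd81, had a change of -0.57 and stood at 26.9 ± 1.84 FPKM in the control, 18.5 ± 0.290 for guide 1 and 17.2 ± 0.520 for guide 2.

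Icam1 encodes an immunoglobulin family receptor for leukocyte integrins and is a well known target of NF-kB. It stood at 5.34, 4.67 and 4.65 FPKM in the controls, 0.238, 0.195 and 0.163 for guide 1, and 0.0288, 0.0486 and 0.0493 for guide 2. The controls lay far above both knockouts, and guide 2 lay below guide 1 without overlap. The log2 changes were -2.29 and -2.50 (SE 0.0790; limma adjusted p = 2.9e-09 and 2.58e-09), or -4.07 and -5.13 with a pseudocount of 0.1. The difference between guides was -0.20 (limma adjusted p = 0.0527), and with a pseudocount of 0.1 it was -1.07 (limma adjusted p = 0.00184). In the same annotation as above, 10 of the 36 genes share exon bases with another gene. Icam1 shares up to 511 with an annotated antisense gene, and Sdc3 up to 222. Cd9 shares up to 218 with the opposite-strand transcript Gm26728. Tspan15 alone shares bases on its own strand, 39 with Mir7662.

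Cd44, the hyaluronan receptor of epithelial and mesenchymal cells, stood at 31.3, 30.2 and 35.3 FPKM in the controls, 47.2, 45.8 and 51.2 for guide 1, and 64.2, 69.8 and 73.3 for guide 2. Its groups did not overlap and guide 2 was highest. It rose by 0.56 and 1.08 log2 units (SE 0.0712; limma adjusted p = 4.68e-05 and 4.48e-07). Of 14 listed genes of hyaluronan and the cytoskeletal partners of Cd44, 7 were tested, with 3 called higher and 4 lower for the mean of both guides, where 37.8% and 43.3% of all tested genes were (median -0.21, and -0.08 for all tested genes). Has2, a hyaluronan synthase, was called lower, at 16.5 ± 1.72 FPKM in the control, 4.86 ± 0.328 for guide 1 and 6.65 ± 0.239 for guide 2, and Ezr, the membrane linker ezrin, was called higher, at 20.4 ± 1.06, 47.0 ± 1.13 and 42.9 ± 2.63 FPKM.

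Of the Cadm and nectin families only genes with a uniquely named row could be judged, and the level of the others is unknown here. Cadm4, an immunoglobulin family adhesion molecule, was the lone one of these rows inside the bound and was not tested at 1 FPKM. It was at 0.126, 0.196 and 0.371 FPKM in the controls, 1.51, 1.22 and 1.36 for guide 1, and 0.479, 0.515 and 0.379 for guide 2. Guide 1 lay above both other groups, and guide 2 lay just above the highest control. With genes of at least 0.5 FPKM in the model the log2 changes were 0.94 and 0.25 (limma adjusted p = 1.07e-05 and 0.0438). Cadm4 passed that bound only through guide 1, so these values describe the gene and support nothing. Of 14 listed partners of nectins and Cadm proteins 6 were tested, 2 called higher and 2 lower for the mean of both guides, where 37.8% and 43.3% of all tested genes were. Epb41l2, a cytoskeletal linker, stood at 12.6 ± 0.568 FPKM in the control, 17.3 ± 0.576 for guide 1 and 21.3 ± 0.572 for guide 2. Pvr, a nectin-like receptor, was at 7.47 ± 0.537, 14.8 ± 0.373 and 7.97 ± 0.816 FPKM, and did not pass for guide 2 alone (0.08, limma adjusted p = 0.346).

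The proteins on either side of the integrins were counted from lists. These were chosen with earlier results of these data known, so their counts and medians describe the genes and support nothing. Of 30 listed integrin ligands 20 had a row and 15 were tested, with 13 called higher and 2 lower for the mean of both guides, where 37.8% and 43.3% of all tested genes were. Their median log2 fold change was 0.76, and that of all tested genes was -0.08. Lama5, a laminin chain, was at 1.102 ± 0.0288 FPKM in the control, 31.6 ± 3.87 for guide 1 and 6.51 ± 0.652 for guide 2, and Ccn2, a matricellular protein, at 59.9 ± 11.03, 635 ± 42.1 and 82.7 ± 3.77 FPKM. Both were called higher for each guide. Of 39 listed genes of integrin activation and the adhesion plaque 27 were tested, with 20 called higher and 5 lower in that contrast, where 37.8% and 43.3% of all tested genes were, and a median of 0.33. Parvb, an adaptor that joins the integrin-linked kinase to actin, was at 0.614 ± 0.114 FPKM in the control, 23.1 ± 0.869 for guide 1 and 4.16 ± 0.452 for guide 2, and Tgfb1i1, a relative of paxillin, at 4.89 ± 0.375, 29.4 ± 1.95 and 21.6 ± 1.84 FPKM.

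Of 6 listed hemidesmosome partners of Itga6 and Itgb4, 2 were tested and both were called higher for the mean of both guides, where 37.8% of all tested genes were. They were Plec, the linker plectin, at log2 changes of 1.49 for guide 1 and 0.83 for guide 2, and Dst, dystonin, at 0.52 and 0.17. Col17a1, the hemidesmosomal collagen, had means of 0.0175 ± 0.0170 FPKM in the control, 0.0231 ± 0.00533 for guide 1 and 0.0367 ± 0.0198 for guide 2.

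Between the knockouts, where the controls cancel, 24 of the 32 tested genes were called, 9 higher for guide 2 and 15 lower, where 54.5% of all tested genes were called, 31.2% higher and 23.3% lower. The median difference was -0.14 log2 units, and that of all tested genes 0.04. The guide 2 libraries lay beyond the guide 1 libraries in 26 of the 32, and in 61.5% of all tested genes. Differences of at least 1 log2 unit were called in 5 genes, where 5.01% of all tested genes had such a call; with a pseudocount of 0.1, Itga9 (-2.20), Tspan2 (-1.31) and Icam1 (-1.07) also reached that size. Lower for guide 2 were Tspan17 (-2.05, SE 0.124), Sdc3 (-1.98, SE 0.0748), Itga6 (-1.65, SE 0.0667) and Itgb3 (-1.42, SE 0.0849), each with all 3 guide 2 libraries below all 3 guide 1 libraries. Higher for guide 2 was Tspan6 (1.34, SE 0.122, or 2.06 with a pseudocount of 0.1). Of the 5 alpha chains 4 were called lower for guide 2, as were 3 of the 4 tested beta chains, among them Itga3 at -0.78, Itga5 at -0.54 and Itgb5 at -0.73. Itga9 was one of the 4 although it fell against the control, since its guide 2 libraries were the lowest of all. Itga7 was higher for guide 2, by 0.35.

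The next largest differences towards guide 2 were Cd44 (0.51, SE 0.0712, limma adjusted p = 0.000153), Tspan12 (0.50, SE 0.0900, limma adjusted p = 0.00089) and Sdc2 (0.47, SE 0.0866, limma adjusted p = 0.000966), and in all of them the knockouts did not overlap. For Itgb1 the difference was -0.08 (SE 0.0510, limma adjusted p = 0.196), for Sdc4 it was -0.04 (SE 0.0465, limma adjusted p = 0.532) and for Cd63 -0.05 (SE 0.0647, limma adjusted p = 0.51). A p that misses the threshold does not show that these levels were equal.

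**Figure D4:**
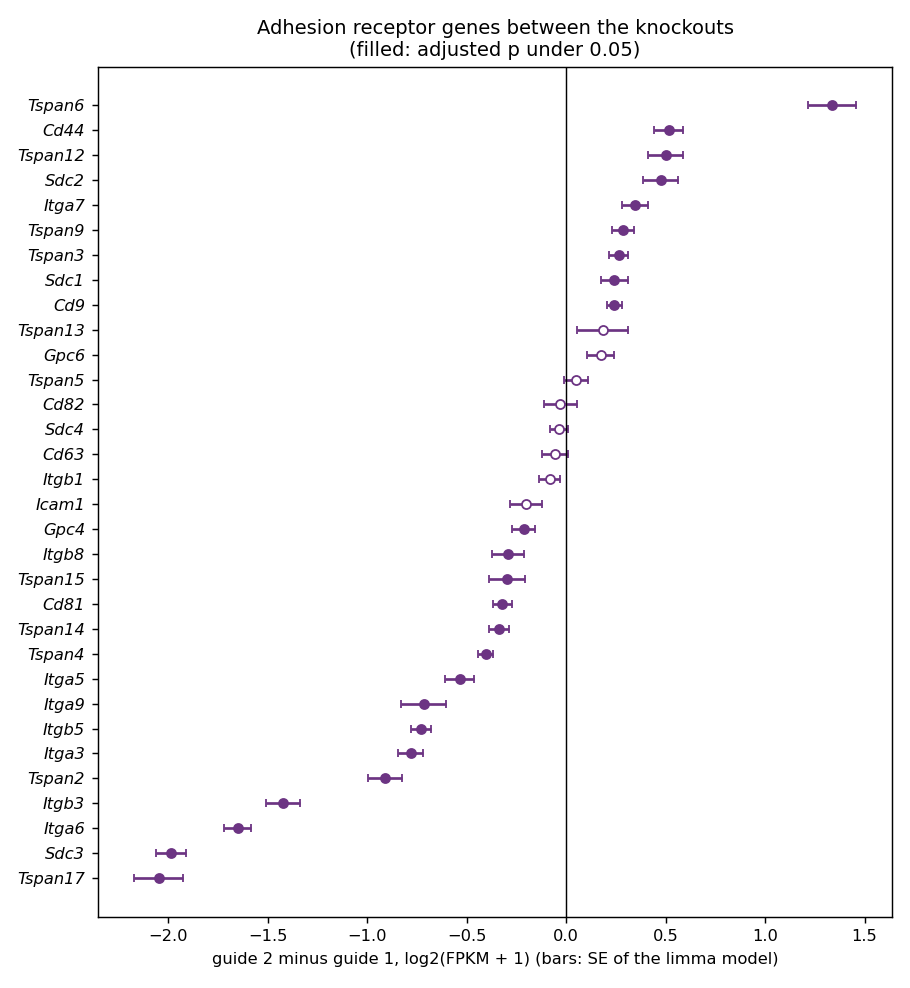
Difference between guide 2 and guide 1 for the 32 tested adhesion genes on the log2(FPKM + 1) scale, ordered by size, with the standard error of the limma model; filled points passed an adjusted p of 0.05. Tspan17, Sdc3, Itga6 and Itgb3 lie at -2.05 to -1.42, and Tspan6 alone lies above 1.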

How the data were processed

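FPKM per gene for 9 libraries of polyadenylated RNA are the deposited values, named so per the file headers and normalized by the authors. Per the submitters' processing notes, cutadapt, FastQC, HISAT2 and StringTie were used; the sources used here give no versions, genome build or annotation. Promoter windows are RefSeq's on GRCm38.p6. Groups and replicate numbers come from the sample titles. Columns of other samples numbered 0. Of 15620 rows, 174 with 62 repeated symbols were left out, and 8481 of the rest with a mean under 1 FPKM were not tested. Libraries were checked for identical values and none were found.

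Values were analysed as log2(FPKM + 1) with limma 3.58.1 (R 4.3.3) on all 9 libraries and 6965 genes, with a prior variance that followed the mean. Benjamini-Hochberg adjustment ran over all of these genes. The test was checked on simulated data with independent noise and few changed genes, for the mean of both guides only. That check does not cover replicates that may be technical, or data in which most genes are called. Relative depth came from the commonest ratio between libraries among very low values. Each library's value is given for genes that passed for both guides with 1 log2 unit on average and all knockout libraries beyond the controls, for the 4 largest differences per direction between guides, and for the 6 most abundant genes. Of each list the 2 largest called changes are named. Tspan11, Itgb7 and Cadm4 received each library's value after these were seen, and Igsf8 was named after its values were seen. The genes and lists were chosen with earlier results of these data known. Alternatives were a pseudocount of 0.1, no filter, filters of 0.5 and 5 FPKM, quantile normalization, trimmed mean rescaling (30% at either end), the replicate block, a prior variance held constant, the compared libraries alone, and leaving out each library.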

Additional observations from a re-analysis of the deposited data

Results flagged for a closer look

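Between guide 2 and guide 1, 24 of the 32 tested genes differed in a direct test of the difference, where 54.5% of all 6965 tested genes did; the count describes the genes and supports nothing, since some passed the bound on low values through a group where they are high. With a pseudocount of 1, those of at least 1 log2 unit were Tspan17 at -2.05, Sdc3 at -1.99, Itga6 at -1.65, Itgb3 at -1.42 and Tspan6 at 1.34, as guide 2 minus guide 1. With a pseudocount of 0.1, Itga9 at -2.20, Tspan2 at -1.31 and Icam1 at -1.07 (limma adjusted p = 0.00184) also reached that size. With a filter of 0.5 FPKM so did Tspan11 at 1.38, which passed that filter only through guide 2. Guide 1 was farther from the control than guide 2 in the first 5 genes and in Tspan2, and guide 2 was farther in Itga9, Icam1 and Tspan11.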

How the results depend on the processing

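Of 2264 values of single genes under the alternatives, 2211 kept their direction and their side of the threshold, 33 lost a call, 15 gained one and 5 changed sign. The sign changes were all in values that had not passed, when 1 library was left out. Sdc1 for guide 1 ranged from -0.0126 (without control replicate 2) to 0.105, Tspan5 for guide 1 from -0.0146 (without guide 1 replicate 1) to 0.104, and Itga6 for guide 2 from -0.0120 (without guide 2 replicate 3) to 0.09999. Between guides, Cd82 ranged from -0.0883 to 0.0257 (without guide 1 replicate 3) and Tspan5 from -0.0160 (without guide 1 replicate 2) to 0.102. Of 109 called values, 26 in 9 genes moved by over 1.5 times with a pseudocount of 0.1, and 2 after quantile normalization: Itgb1 for guide 1 was 0.22 and Itgb8 for the mean of both guides 0.18. For both guides together, the Sdc1 call (0.16, limma adjusted p = 0.0295) was lost without control replicate 1 or 2, guide 1 replicate 1 or 3, or guide 2 replicate 1, at limma adjusted p up to 0.148, and without the filter. Between guides the Sdc1 call was lost without guide 1 replicate 2 (0.19, limma adjusted p = 0.0529), and the Tspan15 call without guide 1 replicate 1, guide 2 replicate 2 or guide 2 replicate 3 (limma adjusted p up to 0.063).

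With a filter of 5 FPKM, under which fewer genes (22) are tested, 12 were called higher for guide 1, 12 higher for the mean of both guides and 9 lower between guides. Leaving out each library gave 18 to 19 higher and 8 to 11 lower for guide 1, 16 to 17 and 10 to 11 for guide 2, 18 to 19 and 11 to 11 for the mean of both guides, and 8 to 10 and 14 to 15 between guides. The replicate numbers were not used as pairs. Deviations of the 9 pairs of libraries with the same number correlated from -0.107 to 0.245. Pairs with unlike numbers ranged from -0.234 to 0.163. Of the 9 pairs 2 were over 0.1, both between guide 1 and guide 2: 0.245 for replicate 1 and 0.21 for replicate 3. In 3 of 9 libraries the mean correlation with their own number exceeded every correlation with another number. With the replicate block 18 genes were called higher and 9 lower for guide 1, 17 and 11 for guide 2, 19 and 11 for the mean of both guides, and 9 and 15 between guides. Counting error is unknown, because no fragment numbers were used.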

Other observations

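The following receptors lay under the bound of 0.5 FPKM and were chosen after their values were seen, with no test. L1cam, a neural adhesion molecule, was at 0.490, 0.435 and 0.382 FPKM for guide 1, at 0.00458, 0.00743 and 0 for guide 2, and listed at 0 in the 3 controls. Itga8, an integrin chain of mesenchymal cells, was at 0.558, 0.633 and 0.666 FPKM for guide 1, at 0.0996, 0.116 and 0.0965 for guide 2, and listed at 0 in the controls. Ddr2, a collagen receptor kinase, was at 0.0784, 0.120 and 0.146 FPKM for guide 1, at 0.376, 0.456 and 0.552 for guide 2, and at 0.0339, 0 and 0.0116 in the controls. Alcam, Cadm2, Nectin4, Gpc3, Tspan18 and Tspan32os stayed at or under 0.141 FPKM in every library.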
